A study of Mus musculus with 6 samples.

Results

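Tfh cells, the CD4+ T cells that help B cells in germinal centers, were examined for 44 genes of the unfolded protein response and of protein folding, degradation and translocation in the endoplasmic reticulum (ER). The genes were chosen by name for their known roles, and are 44 of the 53379 genes counted in each of 6 mice. The study asked how Tfh cells change when BLIMP-1, the transcription factor encoded by *Prdm1*, is missing from DCs. The *Prdm1*-CKO group was 3 mice with *Prdm1* fl/fl and CD11c-CRE, which the study used to delete *Prdm1* in DCs with high CD11c. Whether *Prdm1* stayed intact in the sequenced Tfh cells is not given in the sources used here. The CTL group was 3 mice with either *Prdm1* fl/fl and no Cre, or *Prdm1* +/+ with CD11c-CRE, and which CTL mouse carried which is not in the labels. All 6 were female, were given NP-CGG in CFA (a hapten-protein conjugate in complete Freund's adjuvant) at 6 to 8 weeks of age, and gave splenic Tfh on day 7, gated as live TCRβ+CD4+CXCR5+PD1+ cells. No FOXP3 gate is stated for this sort, so follicular regulatory T cells may be included. Sample labels name the second group a Blimp1 KO in the title and a Blimp1 KD in the genotype field, and the text uses the study's name for it.

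Secreted and membrane proteins enter the ER through the SEC61 channel, lose their signal peptide, receive N-glycans and fold with the help of chaperones and disulfide isomerases. Proteins that fail to fold are drawn back out and degraded, and an excess of them is sensed by IRE1, PERK and ATF6, which raise transcription of the folding and degradation genes through XBP1, ATF4 and cleaved ATF6. The response is best known among lymphocytes in plasma cells, where XBP1 acts downstream of BLIMP-1 to expand the ER for antibody secretion, while Tfh cells secrete cytokines in smaller amounts.

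The promoters of several of these genes share a short element. The genes were chosen by role and not by this element. Those roles include being raised through ATF6 and XBP1, which bind it, so its share is not independent of the choice. The ER stress element (ERSE), bound by NF-Y together with ATF6 or XBP1, is CCAAT and CCACG with 9 bases between them, and it was searched for on both strands from 250 bases before to 50 bases after each RefSeq start site on GRCm38.p6. Of the 34 genes of the set with at least 1 such window, 9 held an ERSE (26.5%), against 37 of all 27025 genes with a window (0.137%). The 9 were 6 of the 12 chaperone genes, 1 disulfide isomerase gene and 2 degradation genes. Their matches are shown because they are the element that these genes have in common, each read along the strand of its gene, with the match in capitals, and a match on the opposite strand reads CGTGG first and ATTGG last.
*Hspa5*, chr2:34772020-34772048, plus strand: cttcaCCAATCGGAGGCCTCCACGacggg
*Hsp90b1* upstream match, chr10:86705633-86705661, minus strand: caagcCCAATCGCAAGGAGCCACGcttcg
*Hsp90b1* downstream match, chr10:86705528-86705556, minus strand: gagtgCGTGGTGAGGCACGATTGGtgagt
*Calr*, chr8:84847070-84847098, minus strand: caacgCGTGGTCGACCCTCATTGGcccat
*Canx*, chr11:50325795-50325823, minus strand: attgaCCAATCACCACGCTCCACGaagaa
*Creld2*, chr15:88819515-88819543, plus strand: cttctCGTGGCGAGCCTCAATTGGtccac
*Dnajc3*, chr14:118937822-118937850, plus strand: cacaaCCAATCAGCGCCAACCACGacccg
*Pdia6*, chr12:17266486-17266514, plus strand: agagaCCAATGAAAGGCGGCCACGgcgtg
*Derl3*, chr10:75893237-75893265, plus strand: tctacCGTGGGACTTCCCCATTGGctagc
*Syvn1*, chr19:6046527-6046555, plus strand: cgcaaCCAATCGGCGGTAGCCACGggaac

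The shorter ERSE-II, ATTGG and CCACG with 1 base between them, was found for 2 of the 34 genes (5.88%) and for 12 of all genes with a window (0.0444%), and it shares the letters CCACG with ERSE.
*Dnajb11*, chr16:22857847-22857867, plus strand: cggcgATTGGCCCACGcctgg
*Herpud1*, chr8:94386372-94386392, plus strand: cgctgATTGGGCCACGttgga
The letters TGACGTGG, a core bound by XBP1 and ATF6, were found for none of the 34 genes and for 0.714% of all genes with a window. The ATF4 element TGATGNAAN was found for 1 of the 34, *Herpud1* (2.94%), and for 4.50% of all genes with a window. No match to one element overlapped a match to another in these genes. A match is a description of letters and not evidence of binding, and the windows of *Manf*, *Mzb1*, *Hyou1*, *Atf6*, *Sec61a1*, *Tram1*, *Sec11c*, *Ssr2*, *Ostc* and *Derl1* were not analysed here.

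**Figure D1:**
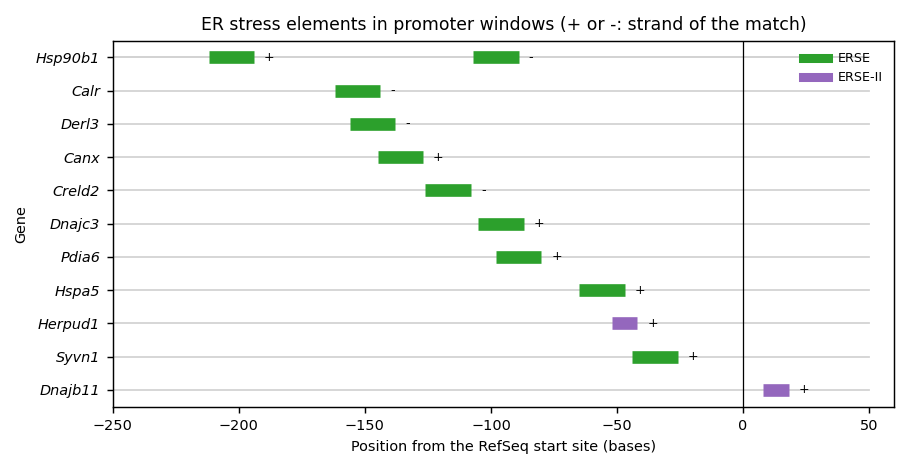
Positions of ERSE (green) and ERSE-II (purple) in the promoter windows of the 11 genes that hold one, in bases from the RefSeq start site at 0, with the strand of the match beside each bar. All the ERSE matches lie upstream of the start site, from -212 in *Hsp90b1* to -26 in *Syvn1*, and *Hsp90b1* holds both a plus and a minus strand match.

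The libraries held between 7147601 and 16973392 counts, 1 library per mouse, and all 44 genes passed the expression filter. Their counts in a single mouse ranged from 20 to 14667, and together they took between 0.689% and 0.847% of a library. The smallest level a library could show, taken as 3 counts, was between 0.177 and 0.420 CPM (counts scaled to the library size with TMM factors), which covers counting error only. CTL replicate 2 stood apart from the other 5 mice on the first principal component of all genes, at 134.6 against -29.1 to -24.0, so results that rest on it are given with and without it. All 11 Tfh markers had more than 3 counts in every mouse, *Cxcr5* between 254 and 477 CPM and *Bcl6* between 66.0 and 124 CPM. *Cd4* was between 896 and 1061 CPM in CTL and between 774 and 847 CPM in *Prdm1*-CKO mice. Its *Prdm1*-CKO values were thus all below its CTL values, as for 3.86% of all genes. Markers of B cells, plasma cells and macrophages also had counts, with sums given below beside the genes they touch. *Prdm1* itself was at 28.9, 30.0 and 27.5 CPM in CTL mice and 30.2, 30.8 and 30.9 CPM in *Prdm1*-CKO mice, with a log2 fold change of 0.09 ± 0.19 (edgeR, adjusted p = 0.996). Values of single mice are given here and below in the order of replicates 1 to 3, and the error of a log2 fold change is its standard error. Because the deletion is aimed at DCs, this level does not check the labels.

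All 44 genes had counts in the Tfh cells of every mouse, and none of them passed the test between groups. With edgeR's quasi-likelihood method, comparing the 3 *Prdm1*-CKO with the 3 CTL mice, and Benjamini-Hochberg adjustment over 14555 genes, 0 of the 44 genes reached an adjusted p under 0.05, as did 0 of all genes (0.0%), and the adjusted p of the 44 lay between 0.996 and 0.999. At an unadjusted p under 0.05 there were also 0 of the 44, against 2.35% of all genes. DESeq2's Wald test called 0 of the 44 after adjustment and 2 without it, *Mzb1* and *Derl3*, against 2.62% of all genes at an unadjusted p under 0.05 (681 of 26030, of which those higher in *Prdm1*-CKO mice were 1.01% of all genes) and 9 of 16941 after adjustment (0.0531%). Log2 fold changes of the set, *Prdm1*-CKO minus CTL, ran from -0.90 for *Ell2* to 1.11 for *Derl3* with a median of 0.08, beside a median of 0.01 over all genes. Of the 44, 30 were above 0 (68.2%), beside 51.1% of all genes.

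Most of these differences were bounded closely. The standard error of a log2 fold change had a median of 0.18 in the set and 0.33 over all genes. The 95% interval of the difference lay within 2-fold in either direction for 38 of the 44 genes (86.4%, beside 48.2% of all genes), and within 1.5-fold for 24 of them. The 6 exceptions were *Ern1*, *Hyou1*, *Mzb1*, *Derl3*, *Sec61g* and *Ell2*. Of these, *Mzb1* had the widest spread within groups, and the other 5 were among the 6 lowest of the set per length. The widest interval was that of *Ell2*, from -2.09 to 0.29, and the interval of *Derl3* reached from -0.01 to 2.24. P values measure the spread between mice of 1 sort each, and an exact permutation test of 3 against 3 mice cannot go below 0.1.

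For 6 of the 44 genes all *Prdm1*-CKO mice were above all CTL mice, *Hsp90b1*, *Sdf2l1*, *Manf*, *Mzb1*, *Derl3* and *Spcs1* (13.6%, against 4.56% of all genes), and below for 1, *Ddit3*, against 3.86% of all genes. Over both directions the groups did not overlap in 7 of the 44 (15.9%) and in 8.42% of all genes. After a per-library trend with gene length was removed, 3 of the 7 stayed apart, *Manf* and *Derl3* above and *Ddit3* below, against 8.11% of all genes. These 7 genes are taken up below with the values of each mouse.

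**Figure D2:**
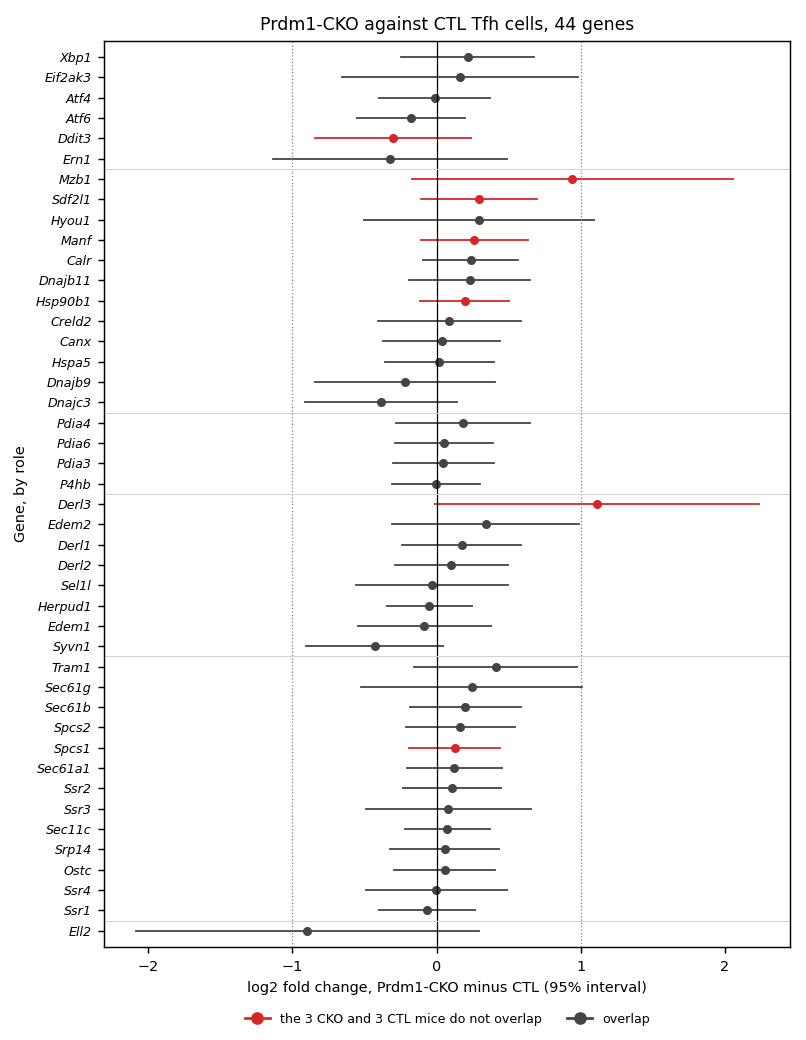
Log2 fold change of each of the 44 genes, *Prdm1*-CKO minus CTL, from edgeR, with its 95% interval; dotted lines mark 2-fold, and red marks the 7 genes whose groups of 3 mice did not overlap. All 44 intervals cross 0, and *Derl3* and *Mzb1* lie farthest right and *Ell2* farthest left.

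In levels per length 2 disulfide isomerases, the chaperone BiP and a subunit of the signal recognition particle led, and the other genes of these classes were spread over the order. *Pdia3*, the isomerase that works with calnexin and calreticulin on glycoproteins, had the highest level per length, 224 CPM per kb of exons in CTL and 232 in *Prdm1*-CKO mice. *Hspa5*, which encodes the HSP70 chaperone BiP, followed at 162 and 164 CPM per kb, then *P4hb*, the founding disulfide isomerase, at 144 and 143 CPM per kb, and *Srp14*, of the signal recognition particle, at 129 and 134 CPM per kb. The ranges of the 6 mice did not overlap between *Pdia3* (196 to 263 CPM per kb) and *Hspa5* (131 to 186 CPM per kb), nor between *Srp14* (111 to 150 CPM per kb) and the next gene, *Calr* (78.4 to 105 CPM per kb). Between these gaps *Hspa5* overlapped with *P4hb*, and *P4hb* with *Srp14*. In the whole order 37 of the 43 neighbouring pairs overlapped. At the low end were the sensors *Eif2ak3* (1.90 and 2.14 CPM per kb) and *Ern1* (1.30 and 1.05 CPM per kb) and the elongation factor *Ell2* (1.11 and 0.594 CPM per kb). The median gene of the set was at 7.13 log2 CPM, beside 4.39 over all genes tested, and 37 of the 44 were above the latter. The 5 genes with the largest CPM held 34.4% of the summed CPM of the set.

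**Figure D3:**
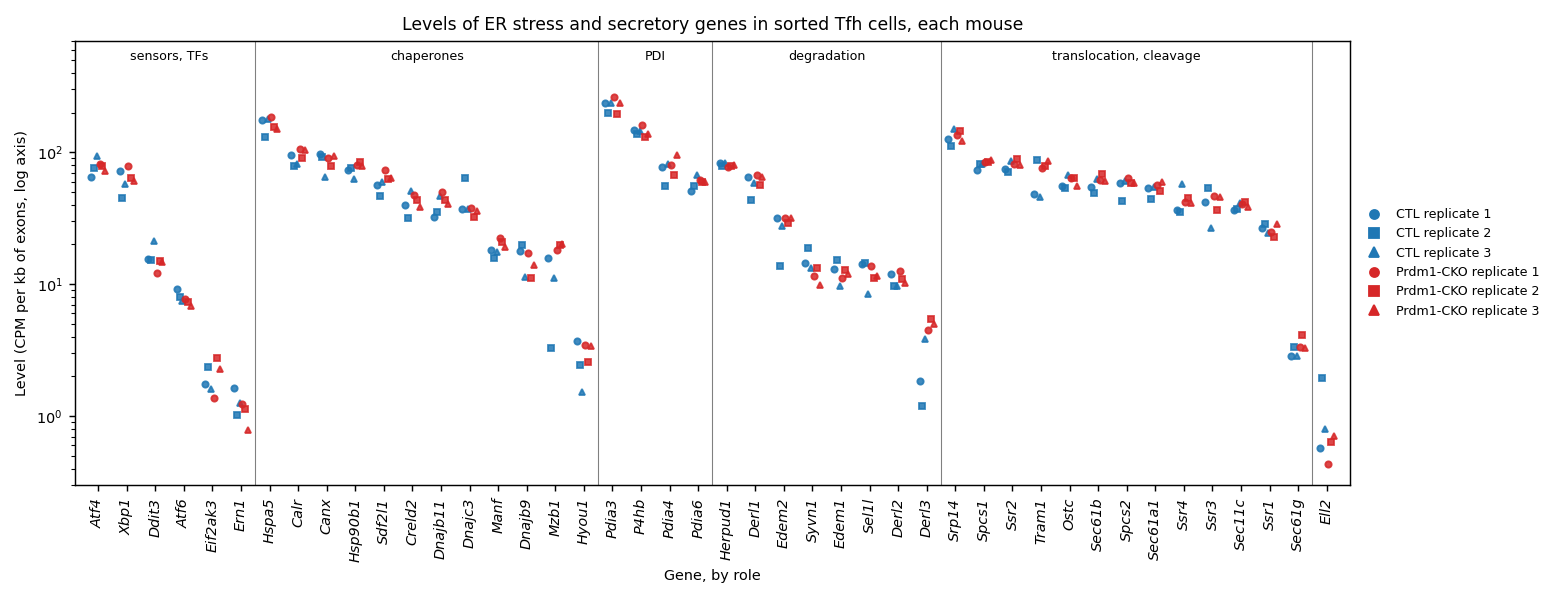
Level of each gene in each mouse in CPM per kb of exons on a log axis, grouped by role and ordered by mean level within a role; blue is CTL, red is *Prdm1*-CKO, and symbols mark replicates 1 to 3. *Pdia3* is highest, between 196 and 263 CPM per kb, *Ell2* lowest, between 0.436 and 1.95 CPM per kb, and *Mzb1* and *Derl3* show their lowest values in CTL replicate 2.

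Of the 6 sensors and transcription factors, 2 had a log2 fold change above 0 and 4 below, with a median of -0.10. *Xbp1*, whose mRNA is spliced by IRE1 to encode the active factor, was at 233, 146 and 186 CPM in CTL and 254, 205 and 197 CPM in *Prdm1*-CKO mice. The groups overlapped, and CTL replicate 2 was the lowest of the 6 mice. Its log2 fold change was 0.22 ± 0.20 (edgeR, adjusted p = 0.996), and it ran from 0.05 without CTL replicate 2 to 0.38 without CTL replicate 1. Counts per gene do not separate spliced from unspliced *Xbp1* mRNA, so they do not measure IRE1 activity.

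*Ern1*, which encodes IRE1α, was at 13.4, 8.41 and 10.2 CPM in CTL and at 10.0, 9.25 and 6.37 CPM in *Prdm1*-CKO mice. *Eif2ak3*, which encodes PERK, was at 10.5, 14.2 and 9.62 CPM against 8.23, 16.8 and 13.6 CPM. Both genes spread about as widely within a group as between groups, with log2 fold changes of -0.32 ± 0.35 and 0.16 ± 0.36. *Atf6* was more abundant than either, at 85.4, 73.9 and 69.1 CPM in CTL and 70.9, 67.6 and 63.6 CPM in *Prdm1*-CKO mice (log2 fold change -0.18 ± 0.16). Its groups overlapped by CTL replicate 3 alone.

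Downstream of PERK, *Atf4* was at 154, 179 and 219 CPM in CTL and 191, 185 and 170 CPM in *Prdm1*-CKO mice. All 3 *Prdm1*-CKO values lay inside the CTL range, and the log2 fold change was -0.01 ± 0.17. *Ddit3*, which encodes the death-associated factor CHOP, was at 26.6, 25.9 and 36.1 CPM in CTL and 20.7, 25.8 and 25.2 CPM in *Prdm1*-CKO mice. It is the 1 gene of the 44 whose *Prdm1*-CKO values were all below CTL, by 25.8 against 25.9 CPM at the nearest mice, with a log2 fold change of -0.30 ± 0.24 (edgeR, adjusted p = 0.996). Without CTL replicate 3, its highest mouse, it was -0.13 and the groups overlapped, as they did with no expression filter. Exons of other genes, among them *Mars* on the opposite strand, cover 10.9% of its exonic bases, and the strand setting of the counting is not given in the sources used here.

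Among the 12 chaperones and co-chaperones, 10 log2 fold changes were above 0 and 2 below, with a median of 0.21, and 4 of the 12 had every *Prdm1*-CKO mouse above every CTL mouse (4.56% of all genes), of which only *Manf* stayed apart once the length trend was removed. *Hspa5*, the most abundant of them, was not one of these, at 743, 554 and 754 CPM in CTL and 786, 657 and 634 CPM in *Prdm1*-CKO mice. Its log2 fold change was 0.02 ± 0.16, with a 95% interval from -0.36 to 0.40, and it was -0.12 without CTL replicate 2. BiP holds the sensors inactive until unfolded protein binds it, and *Hspa5* mRNA is the usual readout of the response.

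*Hsp90b1*, which encodes the ER HSP90 paralog GRP94, was at 295, 306 and 255 CPM in CTL and 323, 338 and 317 CPM in *Prdm1*-CKO mice. The log2 fold change was 0.19 ± 0.13 (edgeR, adjusted p = 0.996), and it ran from 0.13 without CTL replicate 3 to 0.24 without CTL replicate 2. Its promoter holds both ERSE matches shown above, and exons of other genes cover 15.7% of its exonic bases. *Sdf2l1*, a cofactor of BiP and its J proteins, was at 62.3, 51.3 and 65.7 CPM in CTL against 80.7, 69.2 and 70.1 CPM in *Prdm1*-CKO mice. *Manf*, a small secreted ER protein that binds BiP, was at 64.2, 56.1 and 62.3 CPM against 78.3, 73.1 and 67.7 CPM. In both genes CTL replicate 2 was the lowest mouse and *Prdm1*-CKO replicate 1 the highest. Their log2 fold changes were 0.30 ± 0.18 and 0.26 ± 0.16, and 0.19 and 0.20 without CTL replicate 2. Exons of other genes cover 9.25% of the exonic bases of *Manf*.

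*Dnajc3*, an inhibitor of PERK, was at 192, 330 and 192 CPM in CTL and 195, 166 and 185 CPM in *Prdm1*-CKO mice, and CTL replicate 2 stood above all others. The log2 fold change was -0.39 ± 0.23 with that mouse and -0.09 without it. The lectin chaperones *Calr* and *Canx*, which hold glycoproteins during folding, reached 303 and 454 CPM in their highest mice and 226 and 307 CPM in their lowest. *Calr* was at 273, 226 and 236 CPM in CTL and 303, 262 and 302 CPM in *Prdm1*-CKO mice, with an overlap by CTL replicate 1. *Hyou1*, a nucleotide exchange factor for BiP, varied from 10.9 to 26.9 CPM within CTL alone. *Dnajb9* and *Dnajb11*, J-domain partners of BiP, were between 28.5 and 50.7 CPM and between 104 and 161 CPM over the 6 mice. *Creld2*, a disulfide isomerase-like ER protein, was between 43.2 and 68.9 CPM, with both ends of the range in CTL.

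*Mzb1* and *Derl3* had the highest log2 fold changes of the set over the 6 mice, and both are genes in which plasma cells are rich. *Mzb1*, a B and plasma cell cofactor of GRP94 in immunoglobulin assembly, was at 19.2, 4.03 and 13.5 CPM in CTL and 22.1, 24.2 and 24.6 CPM in *Prdm1*-CKO mice, means of 12.2 ± 7.65 and 23.6 ± 1.34 CPM (SD, n = 3). The 3 *Prdm1*-CKO mice lay close together and the 3 CTL mice far apart, with CTL replicate 2 lowest. The log2 fold change was 0.94 ± 0.48 with a 95% interval from -0.17 to 2.05 (edgeR, adjusted p = 0.996). It was 0.52 without CTL replicate 2 and ran from there to 1.42 as each mouse was left out. The gene lies on chromosome 18, and a GENCODE M21 gene model on the same strand, whose identifier is not among those counted, covers 57.2% of its exonic bases.

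*Derl3*, a derlin of the ER degradation channel and the member of its family tied to secretory cells, lies at chr10:75893413-75895941 on the plus strand of GRCm38. It was at 3.70, 2.37 and 7.69 CPM in CTL and 8.90, 10.8 and 9.93 CPM in *Prdm1*-CKO mice, means of 4.59 ± 2.77 and 9.87 ± 0.939 CPM (SD, n = 3). Again CTL replicate 2 was lowest, and the highest CTL mouse was below the lowest *Prdm1*-CKO mouse. The log2 fold change was 1.11 ± 0.49 (edgeR, adjusted p = 0.996), and it ran from 0.80 without CTL replicate 2 to 1.69 without CTL replicate 3. *Derl3* had the smallest unadjusted p of the 44 genes, 0.0517 in the same edgeR test.

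Markers of B lineage cells and macrophages were read beside these genes. *Jchain*, which joins IgM and IgA chains in plasma cells, was at 383, 254 and 382 CPM in CTL and 363, 549 and 636 CPM in *Prdm1*-CKO mice. The 12 plasma cell markers summed to between 2918 and 5032 CPM in CTL and between 4442 and 6651 CPM in *Prdm1*-CKO mice, and in CTL replicate 2, the lowest, 7 of the 12 were at 0, among them *Sdc1* and *Tnfrsf17*. *Ighm* alone held most of each sum, at 3665, 2026 and 2609 CPM in CTL and 3184, 3787 and 4345 CPM in *Prdm1*-CKO mice. *Sdc1* was at 7.67, 0 and 10.5 CPM in CTL and 5.63, 8.03 and 4.93 CPM in *Prdm1*-CKO mice. The log2 fold changes of *Sdc1* and *Fkbp11* were 0.03 ± 1.10 and -0.04 ± 1.07. The 10 B cell markers summed to between 109 and 181 CPM in CTL and between 154 and 242 CPM in *Prdm1*-CKO mice, with 3 of the 10 at 0 in CTL replicate 2, *Pax5*, *Ebf1* and *Fcer2a*. *Cd79b*, of the B cell receptor, was at between 11.7 and 43.98 CPM in CTL and between 44.2 and 58.9 CPM in *Prdm1*-CKO mice, groups that do not overlap. Of the plasma cell markers 10 of 11 tested, and of the B cell markers 10 of 10, had a log2 fold change above 0, beside 51.1% of all genes. So did 12 of 12 macrophage, 4 of 4 erythroid, 2 of 5 dendritic cell and 4 of 11 Tfh markers tested. At an unadjusted p under 0.05 in edgeR, 1 plasma cell, 2 macrophage and 3 erythroid markers were higher, and no B cell marker (0.928% of all genes). One Tfh marker was lower, *Cd4* (1.42% of all genes), with a log2 fold change of -0.29 ± 0.12 (edgeR, adjusted p = 0.996). The smallest adjusted p among the plasma cell and B cell markers was 0.996 in edgeR. The 12 macrophage markers summed to between 2322 and 5056 CPM in CTL and between 4095 and 4970 CPM in *Prdm1*-CKO mice, again lowest in CTL replicate 2. Without that mouse the CTL sums were 3598 to 5056 CPM for macrophage and 4330 to 5032 CPM for plasma cell markers. For B cell markers they were 122 to 181 CPM. The log2 fold changes of markers given here include CTL replicate 2. The groups of *C1qa* overlapped, and those of *C1qc* and *Cd5l* did not. Every *Prdm1*-CKO mouse was above every CTL mouse for 3 of 10 B cell, 2 of 12 macrophage and 1 of 11 plasma cell markers, beside 4.56% of all genes. Dendritic cell markers summed to between 55.3 and 114 CPM in CTL and between 83.7 and 124 CPM in *Prdm1*-CKO mice, and erythroid markers to between 6.40 and 17.6 CPM and between 11.7 and 46.9 CPM. In RNA of sorted cell pools, fewer cells of a type and less RNA per cell cannot be told apart, and the part of B lineage RNA in the values of *Mzb1*, *Derl3* and the other genes was not tested.

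**Figure D4:**
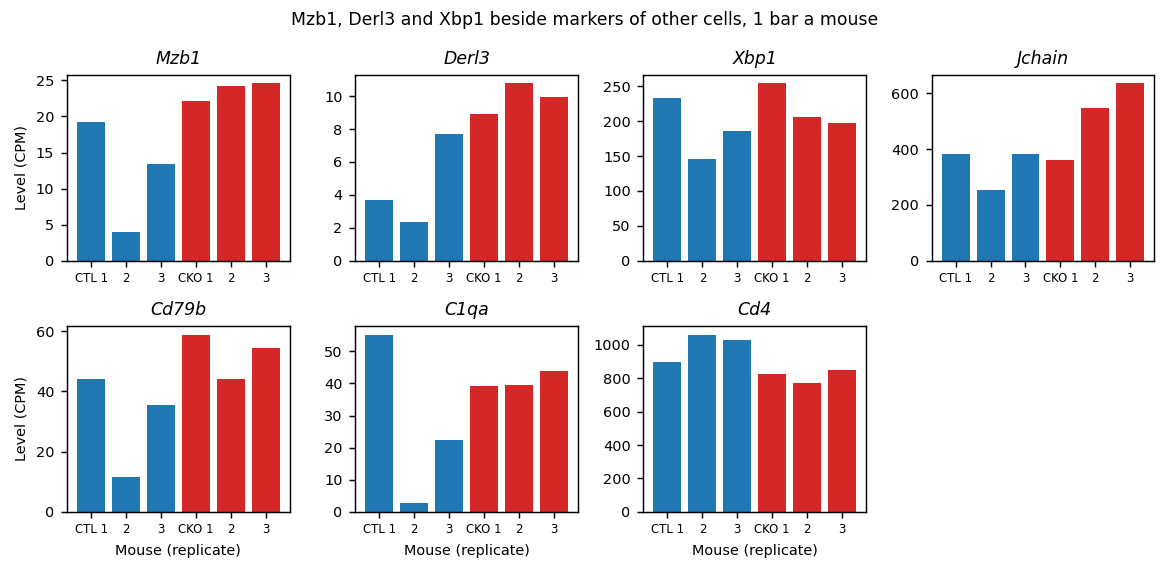
CPM of *Mzb1*, *Derl3* and *Xbp1* beside the plasma cell marker *Jchain*, the B cell marker *Cd79b*, the macrophage marker *C1qa* and the T cell gene *Cd4*, with 1 bar per mouse (blue CTL, red *Prdm1*-CKO) and axes from 0. CTL replicate 2 has the lowest bar for each gene shown except *Cd4*, where it has the highest at 1061 CPM.

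The 4 disulfide isomerases had log2 fold changes between -0.00 (*P4hb*) and 0.19 and a median of 0.05. *Pdia3* was at 745, 622 and 747 CPM in CTL and 826, 616 and 739 CPM in *Prdm1*-CKO mice, and both the lowest and the highest mouse were in the *Prdm1*-CKO group. *P4hb* was at 419, 396 and 417 CPM against 458, 376 and 395 CPM, with both ends of the range again in that group. Their 95% intervals were -0.31 to 0.40 and -0.31 to 0.30 on the log2 scale. *Pdia4*, which cooperates with BiP and GRP94, was between 132 and 229 CPM over the 6 mice, and *Pdia6*, which also limits IRE1 signaling, between 192 and 251 CPM.

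In ER-associated degradation, 4 of the 8 genes had a log2 fold change above 0 and 4 below, with a median of 0.04. *Syvn1* encodes HRD1, the ubiquitin ligase at the center of the machinery, and was at 69.9, 91.8 and 64.2 CPM in CTL and 56.1, 64.3 and 47.5 CPM in *Prdm1*-CKO mice. The groups met at 64.2 and 64.3 CPM, CTL replicate 2 was highest, and the log2 fold change was -0.43 ± 0.21 (edgeR, adjusted p = 0.996), or -0.27 without that mouse. *Sel1l*, which anchors HRD1, was between 72.4 and 125 CPM with both ends of the range in CTL. *Herpud1*, which holds HRD1 to the derlins and carries the ERSE-II shown above, had the smallest SD within groups of the 44 genes and lay between 179 and 195 CPM in all 6 mice. *Derl1* and *Derl2*, the broadly expressed derlins, were between 145 and 224 CPM and between 77.8 and 101 CPM. *Edem1* and *Edem2*, which act on mannose trimming of misfolded glycoproteins, were between 62.7 and 99.0 CPM and between 48.0 and 111 CPM, and the lowest *Edem2* value was in CTL replicate 2.

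Of the 13 translocation, signal peptidase and glycosylation genes, 11 had a log2 fold change above 0 and 2 below, with a median of 0.11. Their summed CPM was 2204, 2249 and 2330 in CTL and 2453, 2398 and 2463 in *Prdm1*-CKO mice, 2261 ± 63.6 against 2438 ± 35.0 CPM (SD, n = 3), groups that do not overlap. The sums of the other classes overlapped between groups, as did this one once *Tram1* was left out (a choice made after its values were seen), at 1974 to 2184 CPM in CTL and 2149 to 2213 CPM in *Prdm1*-CKO mice. *Tram1*, a membrane protein beside the SEC61 channel, was at 153, 275 and 146 CPM in CTL and 240, 250 and 271 CPM in *Prdm1*-CKO mice, with means of 191 ± 72.5 and 254 ± 15.5 CPM (SD, n = 3), the largest difference in CPM among the 13. CTL replicate 2 was the highest of the 6 mice and the other CTL mice were the lowest, so the log2 fold change was 0.41 ± 0.25 (edgeR, adjusted p = 0.996) with it and 0.75 ± 0.14 without it (edgeR, adjusted p = 0.999), and it was 0.26 without CTL replicate 3. *Spcs1*, a subunit of the signal peptidase, was at 113, 125 and 126 CPM in CTL and 131, 131 and 136 CPM in *Prdm1*-CKO mice, with a log2 fold change of 0.13 ± 0.14, or 0.06 without CTL replicate 1. Its groups did not overlap, and 16.3% of its exonic bases are shared with *Glt8d1* on the opposite strand.

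The channel subunits differed in level, with *Sec61a1* between 300.1 and 397 CPM, *Sec61b* between 62.3 and 87.4 CPM and *Sec61g* between 6.99 and 10.2 CPM. *Sec61g* is uncertain, since 4 other genes, 3 of them pseudogenes, match its transcripts over at least 100 bases at 95% identity or more, and together they held 480 counts over the 6 mice against 585 for *Sec61g*. Near-identical genes were also found for *Dnajb9*, *Derl1*, *Sec61b*, *Ssr2* and *Spcs2*, and exons of 15 of the 44 genes overlap those of another gene. The translocon-associated *Ssr1* to *Ssr4* were between 108 and 301 CPM in every mouse. Of these, *Ssr2* shares a near-identical stretch with *Rtraf*, and *Ssr3* and *Ssr4* had both ends of their ranges in CTL. *Sec11c* and *Spcs2*, of the signal peptidase, were between 250 and 287 CPM and between 180 and 268 CPM. *Srp14* was between 132 and 179 CPM, and *Ostc*, of the oligosaccharyltransferase, between 149 and 185 CPM.

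*Ell2*, an elongation factor that promotes the secreted form of immunoglobulin mRNA in plasma cells, was at 5.62, 19.2 and 7.84 CPM in CTL and 4.28, 6.30 and 6.92 CPM in *Prdm1*-CKO mice. CTL replicate 2 alone was above 10, the opposite of its place for *Mzb1* and *Derl3*. The log2 fold change was -0.90 ± 0.52 (edgeR, adjusted p = 0.996) with that mouse and -0.21 without it.

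Across mice the set varied as other genes of its abundance did. The SD within groups had a median of 0.217 log2 CPM in the set and 0.216 in genes of the same level, taken in 20 bins of mean expression, and 25 of the 44 (56.8%) were below the median of their bin. Relative to each gene's mean over 6 mice, the median of the 44 genes was 0.02, -0.15 and 0.01 log2 in the CTL mice and 0.10, 0.02 and 0.01 in the *Prdm1*-CKO mice. The median over all genes ran from -0.04 in CTL replicate 2 to 0.05 in CTL replicate 1. CTL replicate 2 was thus low and *Prdm1*-CKO replicate 1 high, and the other 4 mice were close to one another. The share of counts from mitochondrial genes was highest in CTL replicate 2 (5.83%) and lowest in *Prdm1*-CKO replicate 1 (2.11%), and lay between 2.75% and 4.41% in the other mice. *Prdm1*-CKO replicate 1 also had the largest library. Libraries held between 7147601 and 14177558 counts in CTL and between 9753574 and 16973392 counts in *Prdm1*-CKO mice. A single gene, *CT010467.1*, took from 5.14% of the counts in *Prdm1*-CKO replicate 1 to 14.7% in CTL replicate 3. The part of these differences in the values of the set was not tested. The lowest value of the 6 mice fell in CTL replicate 2 for 19 of the 44 genes (43.2%, beside 34.9% of all genes), and the highest in *Prdm1*-CKO replicate 1 for 12 (27.3%, beside 10.6%).

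Summed over the 44 genes, the level was 7507, 7035 and 7389 CPM in CTL and 8097, 7306 and 7644 CPM in *Prdm1*-CKO mice, 7310 ± 246 against 7682 ± 397 CPM (SD, n = 3). The groups overlapped. The median deviation of the 12 chaperones was -0.0007, -0.22 and -0.13 log2 in CTL and 0.21, 0.02 and 0.04 in *Prdm1*-CKO mice. These groups do not overlap, while the medians of each other class did. No background was counted for such class medians. Without CTL replicate 2 the median log2 fold change of the set was 0.03, beside -0.01 over all genes, and 12 of the 44 did not overlap, 8 above and 4 below, beside 16.2% of all genes when 2 mice stand against 3.

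**Figure D5:**
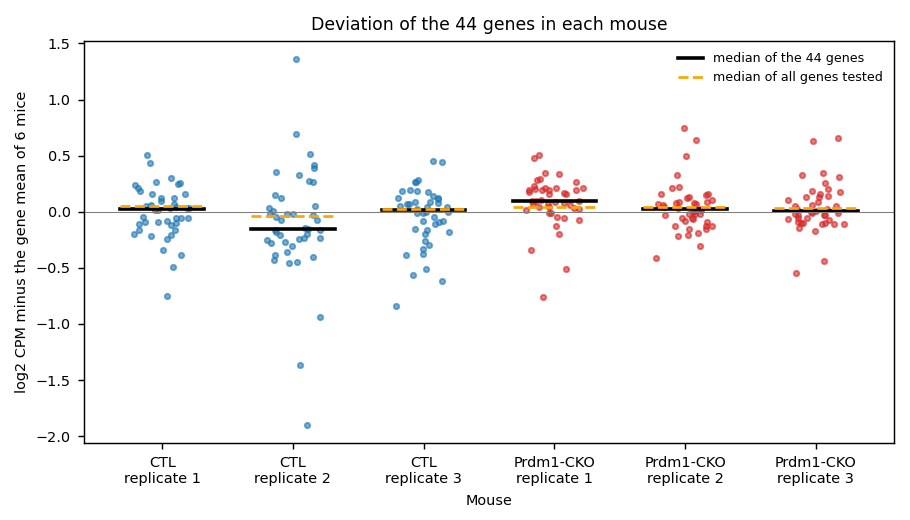
Log2 CPM of each of the 44 genes (1 point a gene) minus its mean over the 6 mice, with the median of the set (black) and of all genes tested (dashed orange) in each mouse. The black line is lowest in CTL replicate 2, at -0.15, and highest in *Prdm1*-CKO replicate 1, at 0.10, and the points spread widest in CTL replicate 2.

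The 9 genes with an ERSE in the window can be set beside the rest. They had a median log2 fold change of 0.05, with 7 above 0 and 2 whose groups did not overlap, *Hsp90b1* and *Derl3*. The 25 genes with a window and no ERSE had a median of 0.06, with 14 above 0 and 3 whose groups did not overlap. The share of all genes without overlap was 8.42%, and *Hsp90b1* overlapped once the length trend was removed. Relative to the mean over mice, the median of the 9 was -0.0446, -0.0755 and -0.0018 log2 in CTL and 0.0861, -0.0008 and 0.0175 in *Prdm1*-CKO mice. The groups were apart only by -0.0018 against -0.0008 at the nearest mice.

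A further 87 genes of the same pathways were listed by role. Of these, 82 were tested, and *Chac1*, *Pdia5*, *Pdia2*, *Fkbp14* and *Kdelr3* were too low. At an adjusted p under 0.05 in edgeR there were 0, and at an unadjusted p under 0.05 there was 1 higher, *Wfs1* (background 0.928%), and 1 lower, *Edem3* (background 1.42%). *Wfs1*, an ER membrane protein induced by ER stress, was at 6.92, 3.32 and 6.51 CPM in CTL and 10.1, 10.5 and 11.2 CPM in *Prdm1*-CKO mice, with a log2 fold change of 0.92 ± 0.40 (edgeR, adjusted p = 0.996). Its CTL values were all below its *Prdm1*-CKO values, CTL replicate 2 was lowest, and without that mouse it was 0.64. *Edem3*, a mannosidase of ER degradation, was at 23.1, 26.7 and 7.84 CPM in CTL and 11.7, 8.44 and 6.03 CPM in *Prdm1*-CKO mice, with a log2 fold change of -1.14 ± 0.48, with CTL replicate 3 inside the *Prdm1*-CKO range. The median log2 fold change of the 82 was 0.02, 43 were above 0 and 39 below, and the groups did not overlap in 7 of them (8.54%, beside 8.42% of all genes), 6 above and 1 below. The 95% interval lay within 2-fold for 66 of the 82.

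By role, the 11 tested genes of N-glycan transfer had intervals within 2-fold throughout and a median log2 fold change of 0.08. Those of signal recognition, translocation and signal peptidase (12 tested) had a median of 0.06, ER folding and disulfide formation (14 tested) 0.03, ER degradation (14 tested) -0.02, ER to Golgi transport (17 tested) -0.03, and the sensors, regulators and targets of the response (14 tested) -0.00. Among these regulators, *Asns*, an amino acid synthesis target of ATF4, was at 7.26, 2.13 and 4.29 CPM in CTL and 10.1, 8.95 and 7.40 CPM in *Prdm1*-CKO mice, groups that do not overlap. *Trib3*, another target of ATF4, was between 1.85 and 6.16 CPM with overlapping groups, and *Ppp1r15a*, the phosphatase subunit that ends PERK signaling, was between 66.9 and 204 CPM with both ends of the range in CTL. These 3 genes were named after their values were seen.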

How the data were processed

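RNA of Tfh cells sorted from the spleen of 3 CTL and 3 *Prdm1*-CKO mice was measured, 1 Smart-seq2 library per mouse from 50 ng RNA, sequenced as paired reads of 25 bases. The authors aligned the reads to GRCm38 (STAR 2.4.2a in the submitters' processing notes) and deposited raw counts per gene, made with featureCounts 1.4.6 on GENCODE M9 and not normalized. Strand setting, multiply aligned reads and counting of pairs are not given in the sources used here.

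Symbols and exonic lengths came from GENCODE M21, which holds 53274 of the 53379 identifiers, and coordinates of genes are given only for identical versions (37 of 44). Counts were tested with edgeR 4.0.16 in R 4.3.3 (TMM, filterByExpr, quasi-likelihood F test, two-sided, no covariate), with Benjamini-Hochberg adjustment over 14555 genes. Log2 CPM used a prior count of 2, and CPM per kb used the union of exons. The 95% intervals used the moderated degrees of freedom. Depth was between 7147601 and 16973392 counts, and the floors cover counting error only. The intervals also hold the spread between mice. Promoters were RefSeq windows on GRCm38.p6. Near-identical genes were sought with blastn at 95% identity over 100 bases. The steps were tested on simulated data.

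The genes and lists were chosen with earlier results of these data known. Named with fold changes were the 6 sensors and factors, *Mzb1*, *Derl3*, *Ell2*, genes whose groups did not overlap, the 3 highest and 3 lowest fold changes, the 3 highest levels, other pathway genes with the smallest unadjusted p under 0.05, and *Prdm1*. Same-numbered replicates had correlations of deviations of 0.16, 0.03 and 0.02, so numbers were not taken as pairs. Alternatives were DESeq2's size factors, DESeq2 1.42.0, no expression filter, a replicate block, removal of a length trend, both together, and each mouse left out. Protein sequences were not used here, so the planned comparison of protein ends was not run.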

Additional observations from a re-analysis of the deposited data

How the results depend on the processing

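No gene of the set passed an adjusted p of 0.05 under any of the 12 alternatives tried, and of 264 fold changes of the 22 named genes, 250 kept their direction and 14 turned. Among all genes, 9 were called by DESeq2's Wald test and 1 without the expression filter, in place of 0. At an unadjusted p under 0.05, genes of the set numbered 2 with DESeq2 and 2 without the filter (*Mzb1* and *Derl3* in both), 1 with the replicate block (*Derl3*), 1 with the length trend removed (*Derl3*), 3 with both (*Mzb1*, *Derl3* and *Syvn1*), and 0 to 3 with 1 mouse left out (*Mzb1* and *Ell2* without CTL replicate 1, *Tram1* without CTL replicate 2, and *Derl3*, *Dnajb11* and *Syvn1* without CTL replicate 3). Genes whose groups did not overlap numbered 3 with the length trend removed and 3 with the block as well. With 1 mouse left out, 2 mice stand against 3, and such genes numbered 7 to 19. They were 15, 12 and 19 without CTL replicates 1, 2 and 3, and 9, 11 and 7 without *Prdm1*-CKO replicates 1, 2 and 3. The share of all genes without overlap was 24.5% without CTL replicate 1 and 16.2% without CTL replicate 2. It was slightly above 24.5% without CTL replicate 3. Without *Prdm1*-CKO replicates 1, 2 and 3 it was 14.6%, 17.9% and 14.3%. Other pathway genes at an unadjusted p under 0.05 numbered 1 without the filter and 0 to 5 with 1 mouse left out (5 with CTL replicate 1 or 3 left out, 1 with CTL replicate 2, and 0 with *Prdm1*-CKO replicate 2 or 3). The share of all genes at an unadjusted p under 0.05 was 2.35% in the main edgeR test and 2.62% with DESeq2. It was not counted for the other settings, so the counts there have no background to be read against.

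The fold changes that turned belonged to 5 genes, which had values between -0.01 and 0.16 over the 6 mice. *Atf4* was 0.012 without the filter and 0.0005 with the replicate block, *P4hb* 0.0197 without the filter, and *Hspa5* -0.005 with the length trend removed. With 1 mouse left out, *Atf4* ran from -0.14 to 0.14, *Eif2ak3* from -0.0614 to 0.413, *P4hb* from -0.0869 to 0.0623, *Hspa5* from -0.12 to 0.10 and *Pdia3* from -0.0512 to 0.16. Each cause was not tested. Replicate numbers were not shown to pair the mice, and the block changed no adjusted call. Without adjustment, it moved *Wfs1* above the threshold of 0.05 and *Mbtps2*, another gene of the pathways, below it. The 6 low or variable genes named above are those that depth and 3 mice a group limit most.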
